A study of Mus musculus with 2 samples.

Results

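The molecular chaperones and their cochaperones described here are 38 genes of the 43346 genes in the deposited tables, chosen by name: the HSP70, HSP90 and HSP110 families, the small heat shock proteins, J proteins (the DNAJ genes), the chaperonins of the cytosol and mitochondria, the adaptor Stip1 and the heat shock transcription factor Hsf1. All 38 were found in both tables, and all 38 had a mean level of at least 1 TPM (a transcript level scaled by length and to the same total in each library). Poly(A) RNA was measured in 2 libraries of brain tissue taken from a single C57BL/6J animal, 1 adult male aged 10 weeks. The labels call them technical replicates 2 and 1 of biological replicate 1, and state that replicate 2 was made later, so its date and the library cannot be told apart. The animal carried no stated allele and received no stated treatment, so the only comparison the labels allow is between replicate 2 and replicate 1. The spread between the libraries holds no difference between animals, and each side of the comparison is 1 library with no replicate check.

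Chaperones bind unfolded proteins and help them fold, refold or move to degradation. HSP70 proteins clamp exposed hydrophobic stretches and are driven by ATP; J proteins bring them substrates and stimulate their ATPase, and HSP110 proteins exchange their nucleotide. HSP90 acts later on kinases and hormone receptors, receiving them from HSP70 through the adaptor Stip1. Chaperonins are barrels that enclose a folding protein, and in the cytosol they fold actin and tubulin, which neurons need in quantity. Small heat shock proteins hold unfolding proteins without ATP. Heat shock factor 1, encoded by Hsf1, binds inverted repeats of the unit GAA, the heat shock element, in the promoters of stress-induced chaperones, while the ER chaperones answer to the unfolded protein response through the ER stress response element.

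Chaperone transcripts were abundant in both libraries. The 38 genes summed to 7384 TPM in replicate 2 and 6030 TPM in replicate 1 (6707 ± 958, SD, n = 2), which is 0.738% of all TPM in replicate 2 and 0.603% in replicate 1. Hspa8, Hsp90ab1 and Hsp90aa1 together held 48.0% of that sum in replicate 2 and 46.1% in replicate 1. The inducible HSP70 genes Hspa1a and Hspa1b and the small heat shock protein gene Hspb1 were the lowest in replicate 2, at 13.3 TPM or less, and stood with Hsf1 among the 4 lowest in replicate 1, at 1.75 TPM or less. In replicate 2 Hsf1, at 21.8 TPM, lay above Hspa2, at 20.4 TPM, and Hspb8, at 16.1 TPM. Of the 703 pairs that 38 genes form, 561 stood in the same order in both libraries, and Spearman's rho between the libraries was 0.77 across the 38 genes, which are not independent replicates.

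**Figure D1:**
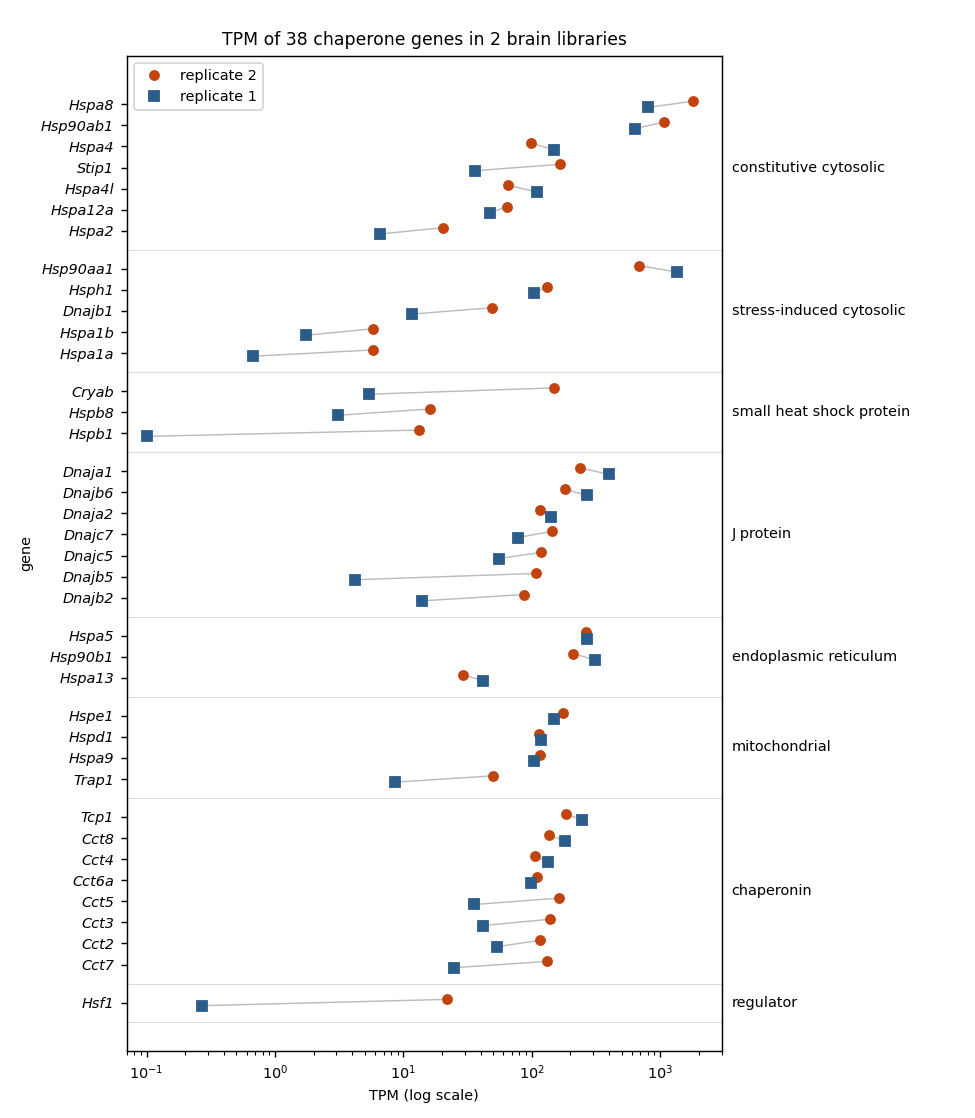
TPM (log scale) of the 38 chaperone genes in replicate 2 (circles, drawn above) and replicate 1 (squares), grouped by role and ordered by mean TPM. Hspa8, Hsp90ab1 and Hsp90aa1 lie farthest right in both libraries, and the widest gaps belong to Hspb1 (13.3 TPM in replicate 2 and 0.10 TPM in replicate 1), Hsf1 (21.8 TPM in replicate 2 and 0.27 TPM in replicate 1), Cryab (148 TPM in replicate 2 and 5.42 TPM in replicate 1) and Dnajb5 (107 TPM in replicate 2 and 4.19 TPM in replicate 1).

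The libraries differed widely across the genes tested. For each gene the rounded expected counts of the libraries were set against each other in an exact binomial test (two-sided) at library sizes scaled by TMM, and a gene was called at a Benjamini-Hochberg adjusted p under 0.05 with at least a 2-fold difference. Of 16320 genes whose counts summed to 10 or more, 34.5% were called higher in replicate 2 and 24.0% lower, 58.5% in all. Replicate 2 holds 17828479 counts and replicate 1 holds 18302506. Mitochondrially encoded genes with 7 nuclear copies of them made up 29.1% of the TPM of replicate 2 and 63.2% of that of replicate 1; without them, a setting chosen after seeing the data, the median log2 ratio of the 38 chaperone genes is -0.13. Marker genes of neurons summed to 4189 TPM in replicate 2 and 4179 TPM in replicate 1, a sum mostly of Snap25, with 2 of the 5 called higher (Rbfox3, 131 TPM in replicate 2 and 14.7 TPM in replicate 1, and Slc17a7, 466 TPM in replicate 2 and 25.5 TPM in replicate 1) and Snap25 called lower (2764 TPM in replicate 2 and 3457 TPM in replicate 1). Those of astrocytes summed to 1781 TPM in replicate 2 and 993 TPM in replicate 1, with 1 of 5 called higher, Aldoc at 1022 TPM in replicate 2 and 199 TPM in replicate 1, and 2 called lower, Slc1a2 and Aqp4. Summed markers of microglia were at 185 TPM in replicate 2 and 64.7 TPM in replicate 1, of endothelium at 122 TPM in replicate 2 and 93.1 TPM in replicate 1, of erythroid cells at 948 TPM in replicate 2 and 46.6 TPM in replicate 1, and of skeletal muscle at 11.5 TPM in replicate 2 and 0.31 TPM in replicate 1. Members of the microglial and endothelial lists also went opposite ways: 3 of the 5 microglial markers were called higher and P2ry12 lower (34.0 TPM in replicate 2 and 47.7 TPM in replicate 1), and 2 of the 4 endothelial ones were called higher and Slco1a4 lower (43.2 TPM in replicate 2 and 78.0 TPM in replicate 1). In the neuron, astrocyte, microglial and endothelial lists, markers called higher had a GC content of 50.2% (Pecam1) to 60.5% (Cldn5). Those called lower had 38.5% (P2ry12) to 45.5% (Slc1a2). All 3 erythroid markers were called higher, and of 2 skeletal muscle markers tested 1 was higher and 0 lower. Median log2 TPM ratios were 0.53 (neuron), -0.01 (astrocyte), 3.28 (microglia), 1.09 (endothelium), 3.75 (erythroid) and 0.76 (skeletal muscle). With the trend on GC content described below taken off, they were -0.02, -0.05, 0.24, 0.28, 2.44 and -1.05 in the same order. The part of all these markers in the chaperone differences was not tested.

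Of the 38 chaperone genes, 12 (31.6%, beside 34.5% of all genes tested) were called higher in replicate 2 and 11 (28.9%, beside 24.0%) lower, and 15 were not called. The median log2 ratio of TPM + 1 was 0.81 over the 38 genes and 0.88 over 14229 genes with a mean of at least 1 TPM. The shares are near those of all genes. The calls depend on the scale. TMM moves every log2 count ratio by 0.61 against library totals; with totals 16 chaperone genes were called higher and 1, Dnaja1, lower, beside 43.6% and 7.9% of all genes. For 7 genes the scales differ in direction: they had a higher TPM in replicate 2 and a TMM-scaled count ratio below 1: Hspa12a, Hsph1, Dnajc5, Dnajc7, Hspa9, Hspe1 and Cct6a. A gene described below as called lower is lower relative to the TMM scale, and its TPM is given beside it.

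The differences ran with base composition. Across the 38 genes the log2 TPM ratio and the GC content of the transcripts had a Spearman rho of 0.90, and across 14188 genes 0.89; the genes share both libraries, so no p is given. Of the 17 chaperone genes with at least 50% GC, 12 were called higher and 0 lower. Of the 12 between 45% and 50%, 0 were called higher and 3 lower, and of the 9 under 45%, 0 were called higher and 8 lower. All tested genes with a GC value split alike: median GC was 55.9% for those called higher, 42.6% for those called lower and 48.7% for those not called. The medians of the chaperone genes were 54.6%, 43.6% and 49.3%. A smooth trend on GC content over all genes was then taken off the log2 count ratio before the 2-fold rule. The p-values stayed those of the test without the trend removed. After that step 3 chaperone genes stayed higher (Cryab, Dnajb5 and Hsf1), 0 of the 11 stayed lower, and 4 others were lower (Hspa1a, Hspa1b, Dnajb2 and Hspe1). Of all genes tested, 12.5% were higher and 8.75% lower. With a separate trend, fitted to the log2 TPM ratios, taken off, the median log2 TPM ratio of the 38 genes was -0.06.

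**Figure D2:**
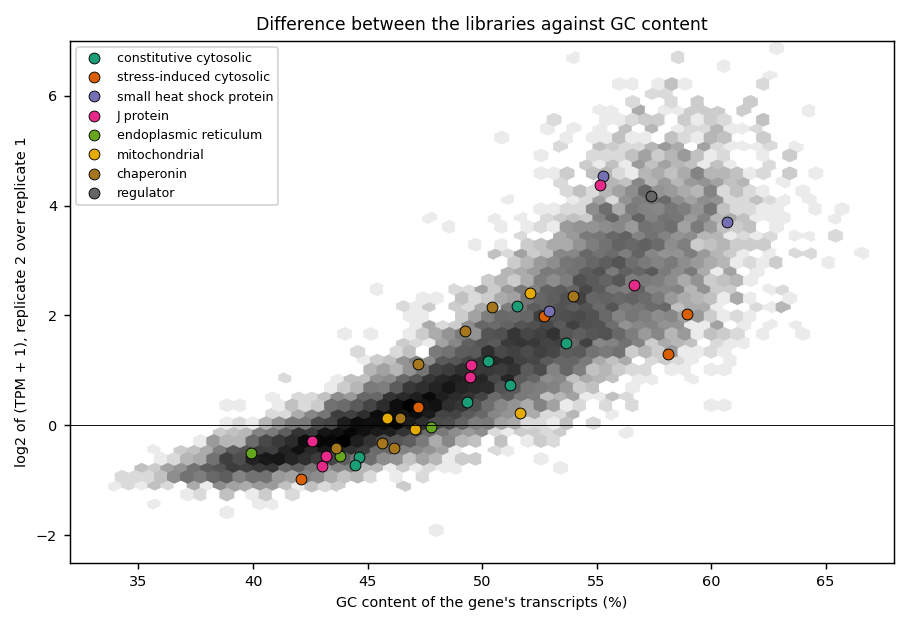
Log2 of TPM + 1 in replicate 2 over replicate 1 (vertical axis) against the GC content of the transcripts in percent (horizontal axis); grey hexagons count all 14188 genes (darker for more genes, log scale) and coloured points are the 38 chaperone genes by role. The chaperone genes lie along the band of all genes, with Cryab and Dnajb5 above it and Hspa1a and Hspa1b below it.

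The constitutive cytosolic chaperones were led by Hspa8, the main HSP70 of resting cells, which also uncoats clathrin vesicles at the synapse (ENSMUSG00000015656.12, chromosome 9, 40800984 to 40810087, GRCm38). Hspa8 was at 1804 TPM in replicate 2 and 802 TPM in replicate 1, a ratio of 2.25 (95% counting interval 2.21 to 2.28). It was not called, because its TMM-scaled log2 count ratio was 0.30. Hsp90ab1, the constitutive cytosolic HSP90, had 1063 TPM in replicate 2 and 636 TPM in replicate 1, a log2 count ratio of 0.84. Stip1, the adaptor between HSP70 and HSP90, had 165 TPM in replicate 2 and 35.9 TPM in replicate 1 and was the 1 gene of the 7 called higher (log2 count ratio 1.22, adjusted p = 2.89e-142, exact binomial test). Hspa4l, an HSP110 family nucleotide exchange factor, was at 65.3 TPM in replicate 2 and 109 TPM in replicate 1 and was the 1 called lower. Its relative Hspa4 had 99.2 TPM in replicate 2 and 148 TPM in replicate 1 and its log2 count ratio of -0.98 lay just inside the 2-fold limit. Hspa12a had 64.1 TPM in replicate 2 and 47.6 TPM in replicate 1, and Hspa2, best known from male germ cells, 20.4 TPM in replicate 2 and 6.61 TPM in replicate 1. Testis germ cell markers summed to 4.84 TPM in replicate 2 and 2.58 TPM in replicate 1. Of these only Ddx4 was tested, at 1.91 TPM in replicate 2 and 2.58 TPM in replicate 1, and it was called lower. Prm1, Prm2 and Tnp1 held 3, 4 and 3 counts in replicate 2 and 0 in replicate 1. The order of the 7 genes was the same for 18 of 21 pairs.

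Among the stress-induced cytosolic genes Hsp90aa1, the inducible cytosolic HSP90 (chromosome 12, 110690605 to 110702728), reached 681 TPM in replicate 2, against 1341 TPM in replicate 1, and was called lower, with a log2 count ratio of -1.52. Hsp90ab1 over Hsp90aa1 was therefore 1.56 in replicate 2 and 0.474 in replicate 1. The constitutive gene was the more abundant of the pair in replicate 2 and the less abundant in replicate 1. Hsph1, an HSP110 that is induced by heat, had 132 TPM in replicate 2 and 104 TPM in replicate 1 and was not called. Dnajb1, the J protein that pairs with inducible HSP70, had 48.8 TPM in replicate 2 and 11.6 TPM in replicate 1 and was called higher (log2 count ratio 1.09). Hspa1a was at 5.81 TPM in replicate 2 and 0.67 TPM in replicate 1, from 175 counts in replicate 2 and 27.0 in replicate 1, and was called higher (log2 count ratio 2.10, adjusted p = 2.4e-16, exact binomial test). Hspa1b, its twin on chromosome 17, was at 5.78 TPM in replicate 2 and 1.75 TPM in replicate 1, with a log2 count ratio of 0.73 that was not called. With the GC trend taken off, both lay lower, at log2 count ratios of -1.97 for Hspa1a and -2.99 for Hspa1b, so their direction turns with that step. Hspa8 exceeded the sum of Hspa1a and Hspa1b 156-fold in replicate 2 and 332-fold in replicate 1.

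The Hsp90 pair shows the composition along one aligned stretch, chosen because it has the largest GC difference among like stretches of 120 coding bases with at least 75% identity, and shown for that reason. Hsp90ab1 (chromosome 17, 45567775 to 45573271, minus strand, coding bases 1174 to 1293 of Hsp90ab1-201) and Hsp90aa1 (chromosome 12, minus strand, coding bases 1201 to 1320 of Hsp90aa1-201) differ there at 30 bases, printed in capitals, 26 of them at the last codon position. Sequences are GENCODE M21 transcripts on GRCm38.p6.
Hsp90ab1: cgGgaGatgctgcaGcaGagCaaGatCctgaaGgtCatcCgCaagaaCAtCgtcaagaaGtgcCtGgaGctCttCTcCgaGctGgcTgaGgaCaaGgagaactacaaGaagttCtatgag
Hsp90aa1: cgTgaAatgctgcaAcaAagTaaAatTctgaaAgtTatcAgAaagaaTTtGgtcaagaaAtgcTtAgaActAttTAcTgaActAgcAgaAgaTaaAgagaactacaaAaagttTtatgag
At the 30 differing bases Hsp90ab1 has G or C at 27 and Hsp90aa1 at 1. GC is 52.5% in the Hsp90ab1 stretch and 30.8% in the Hsp90aa1 stretch, and over whole coding sequences 51.2% and 43.4%.

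Small heat shock protein genes had the largest median log2 ratio of TPM + 1 of the role groups with more than 1 gene, 3.70, the value of Hspb1. Their median GC content, 55.3%, was also the highest of those groups. With the GC trend taken off, their median log2 TPM ratio was 0.34. The 3 genes summed to 178 TPM in replicate 2 and 8.59 TPM in replicate 1, and all 3 were called higher in replicate 2, with TMM sizes and with totals; with the GC trend taken off only Cryab was. Cryab, alpha-B crystallin, a small heat shock protein of lens, muscle and glia (chromosome 9, 50751325 to 50756636), reached 148 TPM in replicate 2, against 5.42 TPM in replicate 1, from 1603 counts in replicate 2 and 78.0 in replicate 1, a ratio of 27.3 (95% counting interval 21.8 to 34.8). The lens markers Cryaa, Cryba1, Lim2 and Mip were at 0 in both libraries (4 of 5, the fifth, Crygs, at 0.18 TPM in replicate 2). Of the oligodendrocyte markers, Mbp was at 2734 TPM in replicate 2 and 249.9 TPM in replicate 1, and Cnp at 256 TPM in replicate 2 and 29.7 TPM in replicate 1. Mobp was at 831 TPM in replicate 2 and 694 TPM in replicate 1, and Mog at 84.6 TPM in replicate 2 and 43.5 TPM in replicate 1. Mbp and Cnp were called higher, and Mobp and Mog were not called. The GC content of Mbp (55.3%) and of Cnp (55.5%) was above that of Mobp and Mog. Log2 TPM ratios were 3.45 (Mbp), 3.07 (Cnp), 0.26 (Mobp) and 0.94 (Mog). With the GC trend taken off, they were 0.99, 0.54, -0.22 and -0.02 in the same order. The part of these markers in the Cryab difference was not tested. Fewer cells of a type, less RNA per cell and a library difference that runs with GC content cannot be told apart in these libraries. Hspb8, which works with a cochaperone in selective autophagy, was at 16.1 TPM in replicate 2 and 3.07 TPM in replicate 1. Hspb1, a small heat shock protein also of actin filaments, was at 13.3 TPM (103 counts) in replicate 2 and at 0.10 TPM (1 count) in replicate 1, a ratio of 133 with a counting interval of 23.3 to 5292. At 60.7% it has the highest GC content of the 38 genes. The pseudogene Hsp25-ps1 shares 58.9% of 50-base windows with Hspb1 and held 0 counts in both libraries.

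The 7 J protein genes summed to 993 TPM in replicate 2 and 959 TPM in replicate 1, and 2 were called higher and 3 lower. Dnaja1, a general cytosolic partner of HSP70, was the most abundant, with 239 TPM in replicate 2 and 399 TPM in replicate 1. It was called lower, and was the 1 chaperone gene called lower with totals too. Dnaja2, its relative, was at 116 TPM in replicate 2 and 142 TPM in replicate 1 and called lower, and Dnajb6, a suppressor of polyglutamine aggregation, at 181 TPM in replicate 2 and 267 TPM in replicate 1 and called lower. Dnajb2, a J protein of neurons, had 87.1 TPM in replicate 2 and 14.0 TPM in replicate 1 and was called higher, but with the GC trend taken off it was called lower, at a log2 count ratio of -1.07. With the separate trend for TPM ratios taken off, its log2 TPM ratio was -0.31. Dnajb5 was at 107 TPM in replicate 2 and 4.19 TPM in replicate 1, a ratio of 25.6 (95% counting interval 21.7 to 30.3), and it stayed higher with the GC trend taken off. Dnajc5, the cysteine string protein of synaptic vesicles, had 119 TPM in replicate 2 and 55.2 TPM in replicate 1, and Dnajc7, which binds both HSP70 and HSP90, 144 TPM in replicate 2 and 77.5 TPM in replicate 1; neither was called. Dnaja1 over Dnajb1 was 4.89 in replicate 2 and 34.5 in replicate 1.

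The 3 ER genes among the 38 chaperone genes had TPM at or below the replicate 1 level in replicate 2. The 20 other ER folding genes, described below, summed to 1654 TPM in replicate 2 and 1138 TPM in replicate 1. Hspa5 (BiP), the ER HSP70 and sensor of unfolded protein load, was at 263 TPM in replicate 2 and 268 TPM in replicate 1 (265 ± 3.30, SD, n = 2), and the counting interval of its ratio, 0.951 to 1.01, holds 1. Hsp90b1, the ER HSP90, was at 209 TPM in replicate 2 and 309 TPM in replicate 1, and Hspa13, a microsomal HSP70 relative, at 29.1 TPM in replicate 2 and 42.0 TPM in replicate 1. All 3 were called lower on TMM-scaled counts, with log2 count ratios of -1.18 for Hspa5, -1.54 for Hsp90b1 and -1.53 for Hspa13, and 0 were called lower with totals or with the GC trend taken off. Hspa5 over Hsp90b1 was 1.26 in replicate 2 and 0.867 in replicate 1.

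Of the 4 mitochondrial chaperone genes, Trap1 had a log2 TPM ratio of 2.41 and the others lay between -0.06 and 0.22. Hspd1 and Hspe1 encode the mitochondrial chaperonin and its lid: Hspd1 was at 113 TPM in replicate 2 and 118 TPM in replicate 1, and Hspe1 at 174 TPM in replicate 2 and 149 TPM in replicate 1. Hspd1 over Hspe1 was 0.648 in replicate 2 and 0.789 in replicate 1; the counting interval of Hspd1's ratio, 0.911 to 1.01, holds 1. Hspd1 was called lower on the TMM scale and Hspe1 was not called. Hspa9, the HSP70 of the mitochondrial matrix, was at 115 TPM in replicate 2 and 105 TPM in replicate 1 and was not called. Trap1, the mitochondrial HSP90, was at 49.7 TPM in replicate 2 and 8.53 TPM in replicate 1 and was called higher (log2 count ratio 1.56, adjusted p = 1.25e-67, exact binomial test).

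The cytosolic chaperonin is built of rings of 8 different subunits, each present once per ring. The 8 subunit genes spanned 107 to 185 TPM in replicate 2, a 1.73-fold range with a coefficient of variation of 19.8%, and 24.8 to 247 TPM in replicate 1, a 9.96-fold range with a coefficient of variation of 78.3%. Tcp1 was at 185 TPM in replicate 2 and 247 TPM in replicate 1, Cct8 at 136 TPM in replicate 2 and 182 TPM in replicate 1, Cct4 at 107 TPM in replicate 2 and 134 TPM in replicate 1 and Cct6a at 109 TPM in replicate 2 and 99.2 TPM in replicate 1. The Tcp1 level includes the retained intron Tcp1-206, at 4.95 TPM in replicate 2 and 61.8 TPM in replicate 1. That of Cct8 includes Cct8-209, annotated for nonsense-mediated decay, at 19.1 TPM in replicate 2 and 48.7 TPM in replicate 1. Cct2 was at 117 TPM in replicate 2 and 53.6 TPM in replicate 1, Cct3 at 138 TPM in replicate 2 and 41.7 TPM in replicate 1, Cct5 at 162 TPM in replicate 2 and 35.7 TPM in replicate 1 and Cct7 at 131 TPM in replicate 2 and 24.8 TPM in replicate 1. Of the 28 pairs of subunits, 13 stood in the same order. Cct5 and Cct7 were called higher and Cct4 and Cct8 lower; 0 of the 8 were called either way with the GC trend taken off. Cct7 over Cct8 was 0.966 in replicate 2 and 0.137 in replicate 1. Cct7 has 54.0% GC and Cct8 43.6%, the extremes of the 8, and Spearman's rho of ratio and GC was 0.93 over the 8 genes. The coding sequence of Cct7 has 51.5% GC and 59.4% at the last codon position, that of Cct8 44.8% and 41.4%.

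**Figure D3:**
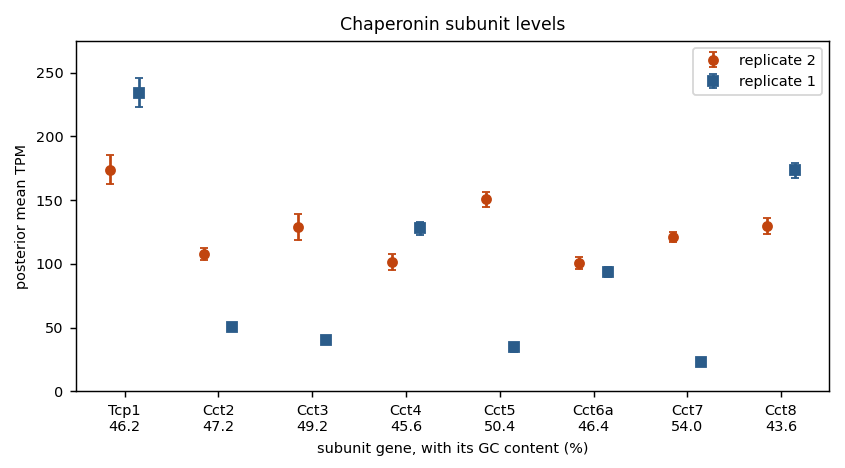
Posterior mean TPM of the 8 chaperonin subunit genes in replicate 2 (circles, left of each pair) and replicate 1 (squares), with the GC content of each gene in percent under its name; bars are the authors' interval, whose level is not stated. The replicate 2 points lie in a narrow band and the replicate 1 points spread from Cct7 at 23.4 to Tcp1 at 234.

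Hsf1, the regulator, was at 21.8 TPM (433 counts) in replicate 2 and at 0.27 TPM (7 counts) in replicate 1, a ratio of 80.8 (95% counting interval 38.9 to 202), and was called higher on the TMM scale (log2 count ratio 5.28, adjusted p = 1.33e-84, exact binomial test) and on the other scales tried. With the GC trend taken out of both the ratio and the test, a setting chosen after seeing the data, its log2 count ratio was 1.88 and the call held (adjusted p = 3.81e-05, exact binomial test). Hsf2, a related factor, had 16.5 TPM in replicate 2 and 24.4 TPM in replicate 1 and was called lower on the TMM scale.

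Promoter windows of RefSeq (GRCm38.p6, 250 bases before to 50 after the start) were found for 29 of the 38 genes. A heat shock element of 2 inverted units, GAANNTTC or TTCNNGAA (each read on the printed strand, which covers both), occurs in 15.1% of all 32851 windows, in 17.0% of genes and in 12 of the 29 chaperone genes. Forms of 3 units, GAANNTTCNNGAA or TTCNNGAANNTTC, which hold the form of 2 units, are in 0.603% of windows and in 4 chaperone genes: Hsph1, Dnajb6, Hspd1 and Hspe1. The ER stress response element, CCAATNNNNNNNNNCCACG or its reverse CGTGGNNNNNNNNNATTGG, is in 0.119% of windows and in 2 chaperone genes, Hspa5 and Hsp90b1. The 150 bases before the start of the inducible pair and of Hspb1 and Hspe1 are shown to let the element be read, in capitals.
Hspa1a, chr17:34972157-34972306, minus strand: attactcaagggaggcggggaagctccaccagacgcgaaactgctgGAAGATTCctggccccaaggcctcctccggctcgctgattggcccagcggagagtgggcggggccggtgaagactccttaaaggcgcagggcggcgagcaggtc
Hspa1b, chr17:34959239-34959388, minus strand: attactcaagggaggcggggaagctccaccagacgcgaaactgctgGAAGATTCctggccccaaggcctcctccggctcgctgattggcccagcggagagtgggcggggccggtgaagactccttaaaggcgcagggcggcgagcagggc
Hspb1, chr5:135887769-135887918, plus strand: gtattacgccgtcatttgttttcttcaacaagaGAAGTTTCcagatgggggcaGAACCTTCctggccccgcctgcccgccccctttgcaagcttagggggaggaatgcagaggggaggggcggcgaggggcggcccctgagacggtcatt
Hspe1, chr1:55087998-55088147, plus strand: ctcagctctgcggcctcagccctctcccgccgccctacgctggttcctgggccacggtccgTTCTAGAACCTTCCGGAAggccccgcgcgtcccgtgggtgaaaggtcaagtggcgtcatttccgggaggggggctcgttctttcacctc
The Hspa1a and Hspa1b windows of 300 bases differ at 4 bases, and the 150 bases shown at 1. Both hold the element at -104 from the start. Their coding sequences differ at 8 bases, with 3 bases more in Hspa1b, and 60.3% of 50-base windows of Hspa1a recur elsewhere, so reads between Hspa1a and Hspa1b can be split by the quantifier and the levels of the pair are uncertain. Hspb1 holds elements at -117 and -97. Hspe1 and Hspd1 lie head to head on chromosome 1: the Hspd1 start whose window holds the element is 216 bases from the Hspe1 start, and both windows hold the same site (55088059 to 55088076). The other Hspd1 start in the table has no such match in its window.

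Other members have processed copies elsewhere in the genome, so their counts depend on how the quantifier split shared reads. The share of 50-base windows of the transcript with the highest mean TPM over both libraries, among those with a sequence in the reference used here, found in another gene was 83.2% for Dnaja1 (Dnaja1-205), 73.2% for Hspa8 (Hspa8-201), 65.6% for Hsp90aa1, 43.6% for Hspd1 and 41.1% for Dnajb6, and 6.07% or less for the members other than these, Hspb1, Hspa1a and Hspa1b. The copies themselves held few counts: Gm15459, the copy of Hspa8 with the most shared windows, held 211 counts in replicate 2, against 167 in replicate 1, and Gm12346, that of Hsp90aa1, held 69.7 counts in replicate 2, against 143 in replicate 1.

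The ER pair is shown with the ER stress response element in capitals.
Hspa5, chr2:34771940-34772089, plus strand: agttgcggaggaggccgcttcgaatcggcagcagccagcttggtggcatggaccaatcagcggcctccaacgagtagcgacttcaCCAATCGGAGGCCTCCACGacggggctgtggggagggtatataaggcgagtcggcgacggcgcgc
Hsp90b1, chr10:86705445-86705694, minus strand: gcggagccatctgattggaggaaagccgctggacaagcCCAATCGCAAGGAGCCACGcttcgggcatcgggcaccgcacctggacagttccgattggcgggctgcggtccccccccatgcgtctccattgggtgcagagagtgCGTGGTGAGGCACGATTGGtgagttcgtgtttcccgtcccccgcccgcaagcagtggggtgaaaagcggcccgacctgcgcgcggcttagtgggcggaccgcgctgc
Hspa5 holds 1 such element at -65 and Hsp90b1 holds 2, at -212 and -107. A match describes letters, not a bound site, and the 2 libraries, labelled with no treatment, hold no stress condition to set it against.

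The most abundant transcript of a gene was the same in both libraries for 31 of the 38 genes. That count includes genes with only 1 transcript listed, such as Hspa2, Cryab and Hsf1, which could not differ. Of 13 genes with at least 2 transcripts at 20% or more of the gene's TPM in either library and a mean of at least 10 TPM, the most abundant transcript was the same for 6. Hspa8-201, of 2394 bases, held 74.8% of Hspa8 in replicate 2 and 30.7% in replicate 1, and Hspa8-202 held 24.6% in replicate 2 and 69.1% in replicate 1. Hsp90ab1-201 held 98.7% of Hsp90ab1 in replicate 2 and 34.1% in replicate 1, where a transcript of 656 bases, Hsp90ab1-208, held 59.8%, against 0.00% in replicate 2. Hsp90aa1-202 held 45.2% in replicate 2 and 1.14% in replicate 1, and the retained intron Hsp90aa1-205, of 487 bases, 0.43% in replicate 2 and 26.2% in replicate 1. Tcp1-209 held 52.4% in replicate 2 and 8.07% in replicate 1, with the retained intron Tcp1-206 at 2.68% in replicate 2 and 25.0% in replicate 1. Hspa4-202, a retained intron of 630 bases, held 4.99% of Hspa4 in replicate 2 and 39.8% in replicate 1. In 7 of the 12 genes with GC values for both transcripts, the transcript that gained most share in replicate 2 had the higher GC content. Short transcripts enlarge a gene's TPM, and the effective length the authors' tables give for Hsp90ab1 is 2309 bases for replicate 2 and 1092 bases for replicate 1. The authors' tables give an interval for each transcript's TPM within a library, around a posterior mean and at a level not given in the sources used here. It ran over 1216 to 1279 TPM in replicate 2 and 219 to 245 TPM in replicate 1 for Hspa8-201, and over 0.00 to 1.48 TPM in replicate 2 and 340 to 377 TPM in replicate 1 for Hsp90ab1-208, so neither pair of intervals overlapped. No test of the transcript shares was made.

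**Figure D4:**
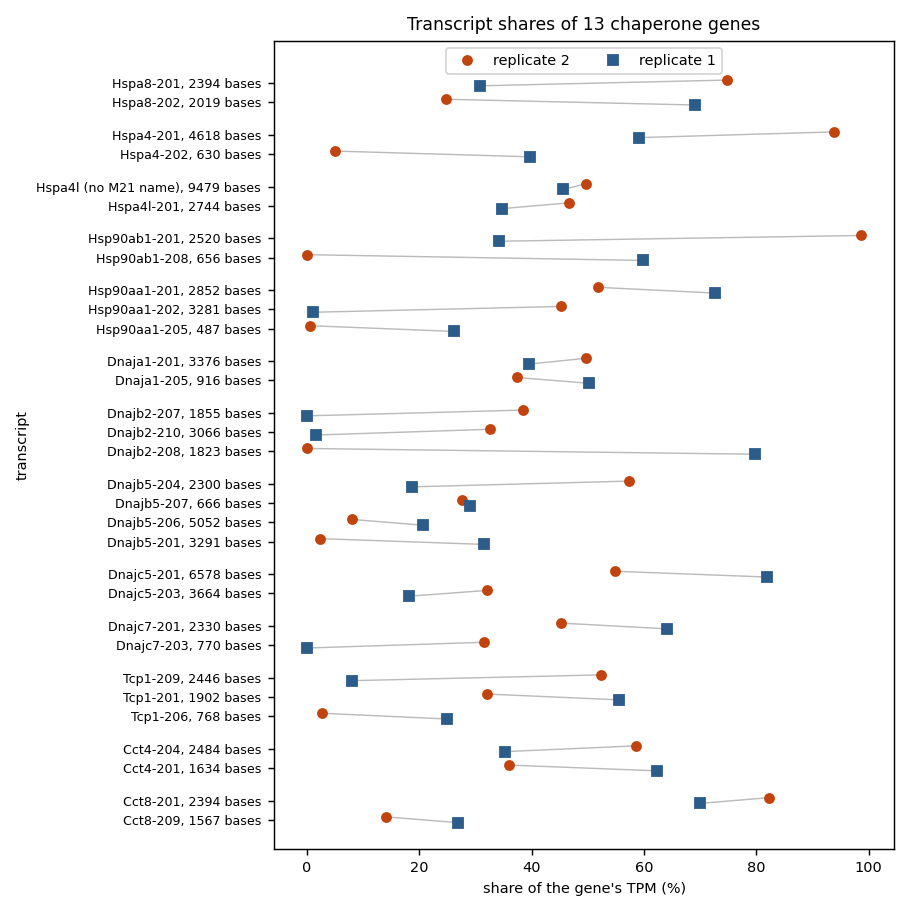
Share of the gene's TPM in percent (horizontal axis) held by each transcript at 20% or more in either library, for 13 chaperone genes, in replicate 2 (circles, drawn above) and replicate 1 (squares). Hsp90ab1-208 and Dnajb2-208 have shares of 0.00% in replicate 2 and 59.8% and 79.7% in replicate 1.

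Other genes of the folding network, in 7 lists with 124 names, were measured for 122 and tested for 111. Of these, 36 were called higher and 31 lower, where 34.5% and 24.0% of all genes tested were. Of 25 cochaperones of HSP70 and HSP90, 12 were called higher and 7 lower; Fkbp8, an immunophilin of the mitochondrial outer membrane, had 337 TPM in replicate 2 and 3.82 TPM in replicate 1 and was called higher, and Ptges3, the HSP90 cochaperone p23, had 106 TPM in replicate 2 and 201 TPM in replicate 1 and was called lower. Of 20 ER folding genes 6 were higher and 5 lower, with the lectin chaperones Calr at 440 TPM in replicate 2 and 192 TPM in replicate 1, not called, and Canx at 162 TPM in replicate 2 and 254 TPM in replicate 1, called lower. Of 17 prefoldin and tubulin cofactor genes tested 5 were higher and 7 lower, among them Pfdn5, a prefoldin subunit, at 459 TPM in replicate 2 and 36.3 TPM in replicate 1 and called higher, and Tbca, a tubulin cofactor, at 197 TPM in replicate 2 and 246 TPM in replicate 1 and called lower. Of 30 other J protein genes tested 6 were higher and 8 lower, with the 2 most abundant, Dnajc8 (129 TPM in replicate 2 and 145 TPM in replicate 1) and the clathrin-uncoating Dnajc6 (142 TPM in replicate 2 and 96.0 TPM in replicate 1), not called. Of 11 mitochondrial genes 5 were higher and 3 lower, with the import receptor Tomm70a at 104 TPM in replicate 2 and 180 TPM in replicate 1 and the protease Yme1l1 at 47.8 TPM in replicate 2 and 94.8 TPM in replicate 1, both called lower. Of 4 other HSP70 and small HSP genes tested 1 was higher and 0 lower, with Hspb11 at 24.0 TPM in replicate 2 and 24.0 TPM in replicate 1 and Hspb6 at 5.44 TPM in replicate 2 and 2.12 TPM in replicate 1, neither called. Of 4 other heat shock factor genes tested 1 was higher and 1 lower, and Hsbp1, a binding protein of Hsf1, was at 294 TPM in replicate 2 and 176 TPM in replicate 1 and not called.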

How the data were processed

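The members and lists were chosen with earlier results of these data known. The expected counts and posterior mean counts, TPM, FPKM and the percent of a gene's TPM held by each transcript were deposited by the authors per library, quantified against mm10 with GENCODE M4, per the file headers and file listing; aligner and quantifier: not given in the sources used here. The authors' posterior SD of each count is a score in counts, and their TPM interval bounds are a signal whose level is not stated, both per the file headers; the interval brackets the posterior mean TPM. Symbols, positions and sequences came from GENCODE M21 and RefSeq promoters on GRCm38.p6; no protein sequence was used here. A gene's GC content is a mean, weighted by TPM, over its transcripts that have a sequence in GENCODE M21. For Hspa4l this left out its most abundant transcript, with 49.7% of its TPM in replicate 2 and 45.6% in replicate 1.

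Counts were rounded, filtered at 10 in the sum and compared with a two-sided exact binomial test at library sizes scaled by TMM (edgeR 4.0.16, R 4.3.3), and folds used counts plus 0.5. Each side is 1 library of 1 mouse, so p-values measure counting error between these libraries. Depth is 17828479 (replicate 2) and 18302506 (replicate 1) counts; 95% intervals of TPM ratios cover counting error only. The call was tested on simulated data. The GC trend was a lowess fit with fraction 0.2 (statsmodels 0.14.6), made separately for count ratios and for TPM ratios. Named genes: in each role, the most abundant, the called and the extreme members, and the 2 most abundant of each other list. Other steps ran in Python 3.11.15 with scipy 1.17.1, pandas 2.3.3, numpy 2.4.6 and matplotlib 3.10.9; DESeq2 1.42.0 gave alternative size factors. One oligodendrocyte marker and the sum that holds it are not reported here.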

Additional observations from a re-analysis of the deposited data

How the results depend on the processing

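No paired analysis was possible because both libraries form 1 group. With a single library on each side, neither DESeq2's test nor the edgeR quasi-likelihood test could be fitted. Counts of called chaperone genes and of called genes stayed within 1.5 times with DESeq2 size factors, no or a higher count filter, posterior mean counts and without mitochondrially encoded genes. With library totals 1 chaperone gene and 1290 genes were called lower, and at 1.5-fold 17 chaperone genes and 5422 of the 16320 genes tested were. With the GC trend removed from the ratio, 3 and 4 chaperone genes were called higher and lower, and 2044 and 1428 genes. With the trend also in the test, chosen after seeing the data, these were 3 and 4, and 1694 and 1533. In both forms the log2 count ratio changed sign for Hspa2 (-0.91), Hspa4 (0.016), Hspa1a (-1.97), Hspa1b (-2.99), Dnajb1 (-0.045), Dnaja2 (0.039), Dnajb2 (-1.07), Hspa13 (0.11) and Cct7 (-0.26). Those of Hspa4, Dnajb1 and Dnaja2 were left very small. With the separate trend for TPM ratios, Hspa4 (-0.52), Dnajb1 (0.31) and Cct7 (0.32) kept their sign and the others named changed theirs. With totals the log2 count ratio reversed for Hspa12a (0.060), Dnajc5 (0.47) and Dnajc7 (0.23), by the construction of the scale. The median log2 ratio was 0.82 with a pseudocount of 0.1, 0.78 from posterior mean TPM, 0.44 from FPKM, 0.40 without mitochondrially encoded genes, -0.061 with the GC trend removed, -0.26 from TMM-scaled CPM and -0.13 without mitochondrial genes and their nuclear copies, a setting chosen after seeing the data; over all genes these last 3 were 0.0016, 0.093 and 0.10. The cause was not tested. The summed TPM was 6030 to 7384 when 1 library was left out and 9300 without mitochondrially encoded genes. Counts of 1 (Hspb1) and 7 (Hsf1) in replicate 1 limit the precision of those ratios.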
